A study of Mus musculus with 2 samples.

Results

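The chemokine gene Cxcl12 and the genes of its receptors, Cxcr4 and Ackr3, were followed across the cell types of the mouse cerebral cortex at embryonic day (E) 16.5. The members were chosen by symbol and are 3 of the 32285 genes listed for each library. Per the labels, both libraries came from cerebral cortex of WT control embryos of an Eomes-Cre line named EomesDot, so there was 1 group with 2 libraries, here replicate 1 and replicate 2. Poly(A) RNA of papain-dissociated cells was counted with a droplet 3' kit that gives each captured molecule a unique molecular identifier (UMI). The study used such cortical cell data to ask which ligands and receptors could link interneurons with cortical progenitors. With no second genotype, every comparison below is between cell types of the same libraries. Strain, sex and the number of embryos per library are not given in the labels, so p-values cover no more than these 2 libraries. They measure how far levels in the cell types varied between the libraries, after the shift shared by all cell types was removed. That spread was estimated jointly over cell types and genes.

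CXCL12 is a secreted chemokine of the meninges and of the cortical progenitor zones, and it guides cells that carry its receptors. CXCR4 is a G protein-coupled receptor that transmits the attraction, while ACKR3 (also called CXCR7) signals mainly through arrestins and takes up CXCL12 from the surroundings. In the developing cortex both receptors are known from interneurons that migrate tangentially out of the medial ganglionic eminence (MGE), and Cxcr4 also from Cajal-Retzius cells, the Reelin-secreting cells beneath the meninges. In the GRCm38.p6 RefSeq annotation Cxcl12 lies on chromosome 6 at 117168535 to 117181368, whereas both receptor genes lie on chromosome 1, Ackr3 at 90203980 to 90215724 and Cxcr4 at 128588199 to 128592299. All 3 are protein-coding, and UMIs at the 3' end of the transcripts do not separate their isoforms.

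Cells with 1500 to 60000 UMIs and under 10% mitochondrial UMIs were kept, which left 5966 cells of replicate 1 and 10247 of replicate 2, with a median of 5706 and 4938 UMIs. A gate, meaning a set of cells that pass a rule on marker genes, took a cell with UMIs of several markers of 1 type and few of the others, and no gate used any of the 3 members. Of the kept cells, 54.7% and 50.8% fell into exactly 1 gate, and 19 gates with at least 20 cells in each library were compared. Markers held back from the gating were highest in their own gate for 4 of 4 genes in Cajal-Retzius cells, 4 of 4 in radial glia (RGCs), 4 of 5 in meningeal fibroblasts, 3 of 3 in endothelial cells, 3 of 6 in MGE interneurons and 2 of 3 in intermediate progenitors (IPCs). They did so for 0 of 3 genes in the Zbtb20-positive excitatory neurons, 1 of 3 in layer 5 neurons, 1 of 3 in GABAergic progenitors, 1 of 4 in interneurons of the caudal ganglionic eminence (CGE) and 1 of 5 in striatal neurons, so these names rest on the gating genes. GABAergic progenitors and striatal neurons are named after cells of the ventral forebrain. Whether tissue labelled cortex also held such cells was not tested. The libraries shared 40 barcodes, 21 of them among kept cells.

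Cxcl12, the ligand gene, was far higher in meningeal cells than elsewhere. Kept cells held 1307 Cxcl12 UMIs in replicate 1 and 2584 in replicate 2. The level is given in CPM, the UMIs of a gene in a gate divided by all UMIs of the gate's cells and scaled to 1000000. In meningeal fibroblasts, the collagen-producing cells of the brain's coverings, it was 1418 CPM in replicate 1 (35 cells) and 1244 CPM in replicate 2 (91 cells), a mean of 1331 ± 123 (SD, n = 2). The program Scrublet, which scores droplets against simulated doublets, marked 2 of the 35 and 31 of the 91 cells, and these stayed in. Meningeal fibroblasts held on average 48.1% of a library's Cxcl12 UMIs. A Cxcl12 UMI was found in 91.4% and 92.3% of them, and in 80.0% and 76.9% after every cell had been thinned to 1500 UMIs so that depth was equal. Both libraries therefore showed nearly every meningeal cell positive.

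RGCs, the stem cells that line the ventricle, had 0 Cxcl12 UMIs in replicate 1 (179 cells) and 12 UMIs or 6.18 CPM in replicate 2 (289 cells). A count of 0 over the replicate 1 cells allows a level of up to 1.78 CPM, and such limits cover counting error only. The fitted difference of meningeal fibroblasts from RGCs was 8.81 ± 0.33 (SE) on the log2 scale (adjusted p = 4.2e-25, edgeR quasi-likelihood test, Benjamini-Hochberg over 14570 genes). In that contrast 33.8% of all genes tested passed the threshold of 0.05 in either direction. Against each of the 18 other gates in turn, meningeal fibroblasts had more Cxcl12 in 18 of 18 contrasts, with log2 differences of 2.89 to 13.96, where on average 36.8% of all genes passed. The upper end of that range is against a gate with no Cxcl12 UMI and is set by the fit, so it is no measured fold.

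**Figure D1:**
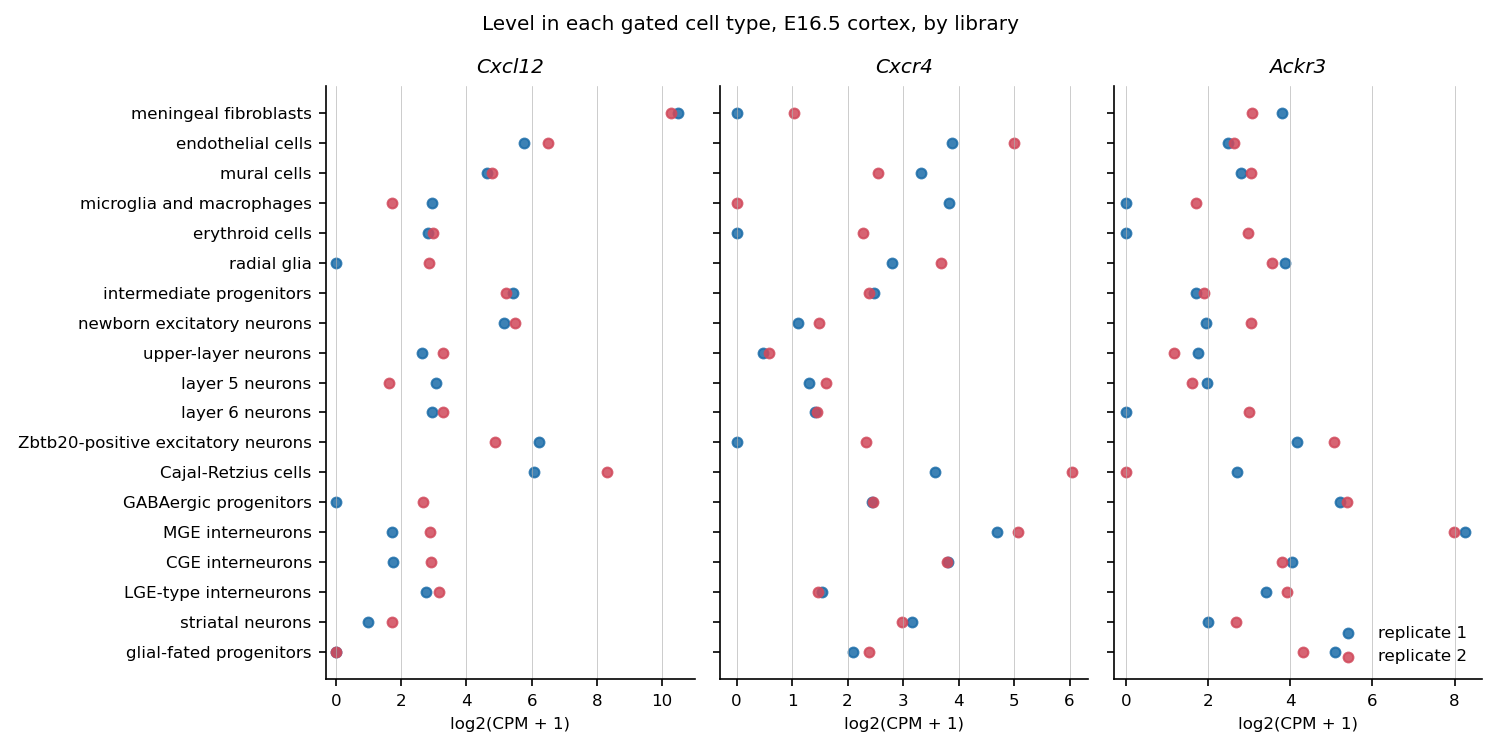
Level of Cxcl12, Cxcr4 and Ackr3 in 19 gates of E16.5 cortex, on the log2(CPM + 1) scale with 1 point per library (blue, replicate 1; red, replicate 2). Cxcl12 stands highest in meningeal fibroblasts at 1418 and 1244 CPM, Ackr3 in MGE interneurons at 304 and 252 CPM, and the Cajal-Retzius points of Cxcl12 and Cxcr4 lie far apart between the libraries.

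Among the neural cells, the excitatory lineage carried Cxcl12 at the stages just after the RGC. IPCs, the Eomes-expressing cells that divide in the subventricular zone, had 41.6 and 35.9 CPM (110 and 118 UMIs). Newborn excitatory neurons, gated on Neurod1, had 34.7 and 43.5 CPM (120 and 144 UMIs). Upper-layer neurons, which are older, had 5.17 and 8.73 CPM. Both libraries placed IPCs and newborn neurons far above RGCs and upper-layer neurons, without overlap.

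IPCs exceeded RGCs by 3.58 ± 0.51 (log2, adjusted p = 2.6e-07, edgeR), in a contrast where 31.8% of all genes passed. The size of that difference rests on few RGC counts. In replicate 2, where RGCs had UMIs, the log2 ratio was 2.48. IPCs and newborn neurons did not differ beyond their spread, at -0.08 ± 0.26 (adjusted p = 0.87, edgeR; 28.1% of all genes passed), but stricter gates, which asked for 1 more marker, put IPCs lower by -1.17 (adjusted p = 0.0032, edgeR). Cycling IPCs had 43.1 and 24.2 CPM of Cxcl12, and IPCs without UMIs of cell cycle genes had 43.4 and 48.8 CPM. The libraries disagreed on a difference, and the fit gave -0.45 ± 0.26 (adjusted p = 0.27, edgeR; 17.4% of all genes passed).

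A minority of IPCs showed the transcript. A Cxcl12 UMI was found in 63 of 287 (replicate 1) and 78 of 437 IPCs (replicate 2), and in 5.92% and 6.86% after thinning to 1500 UMIs. MGE interneurons, taken as a gate with little Cxcl12, showed one in 0.895% and 2.46% of cells, at a median depth of 3351 and 3795.5 UMIs against 8699 and 7296 in IPCs. At equal depth the MGE share was 0.671% and 0.492%, below that of IPCs in both libraries. Compared with each of the 18 other gates, IPCs had more Cxcl12 than 11, less than 3 (meningeal fibroblasts, endothelial cells and Cajal-Retzius cells) and did not pass the test against 4, namely mural cells, erythroid cells, newborn neurons and Zbtb20-positive neurons. On average 30.5% of all genes passed in these contrasts.

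Because meningeal cells held so much Cxcl12, RNA freed from them could reach any droplet. The UMIs of 11 meningeal marker genes were summed in every gate as a measure of such RNA, and the ratio to Cxcl12 was compared. In meningeal fibroblasts there were 15.8 and 13.3 Cxcl12 UMIs for every 100 marker UMIs. MGE interneurons had 15.4 and 14.5, from 4 and 16 Cxcl12 UMIs, at a summed marker level of only 14.6 and 43.3 CPM. CGE interneurons had 15.4 and 18.9. Other gates lay below the meningeal proportion, with 0 and 8.33 in RGCs, 0 and 8.84 in GABAergic progenitors and 6.25 and 5.08 in striatal neurons. The ratio thus varied between gates.

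In IPCs and newborn neurons the proportion was far higher. IPCs had 407 and 127 Cxcl12 UMIs per 100 marker UMIs, with 10.2 and 28.3 CPM of marker RNA. Newborn neurons had 545 and 148. Endothelial cells had 51.1 and 83.3. Upper-layer neurons (83.9 and 29.7) and layer 6 neurons (66.7 and 41.7) were also above the meningeal proportion in both libraries, as were LGE-type interneurons (33.3 and 18.8). Mural cells had 1.52 and 1.29, at a summed marker level of 1582 and 2069 CPM, far above the other gates outside the meninges. The sum cannot separate freed meningeal RNA from markers that a gate expresses itself. The mural ratio is therefore not read as a measure of freed RNA. The part of RNA from meningeal cells in the Cxcl12 of these gates was not tested.

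**Figure D2:**
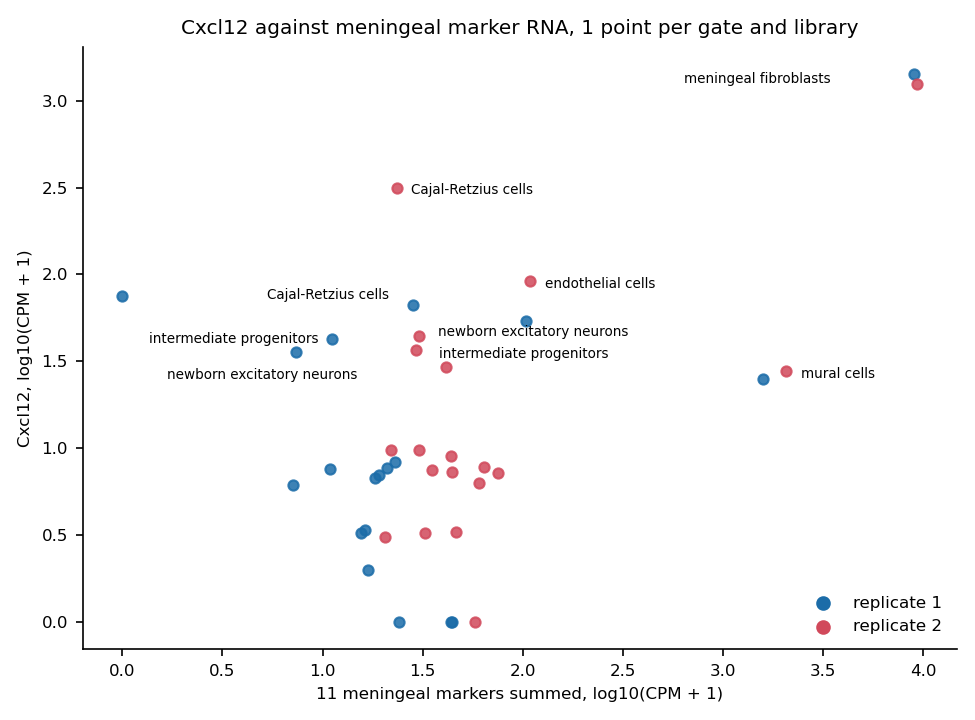
Cxcl12 level against the summed level of 11 meningeal marker genes, both as log10(CPM + 1), with 1 point per gate and library. Meningeal fibroblasts lie at the top right, while Cajal-Retzius cells, newborn neurons and IPCs stand above other gates with the same marker level.

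Blood vessels carried Cxcl12 unevenly. Endothelial cells, which line the vessels, had 52.9 and 90.2 CPM (23 and 70 UMIs in 36 and 87 cells). Mural cells, the pericytes and smooth muscle around them, had 8 and 11 UMIs in 35 and 58 cells, a mean of 25.3 ± 1.90 CPM (SD, n = 2). Endothelial cells were the higher gate in each library, though by a different margin.

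Mural cells were lower than endothelial cells by -1.67 ± 0.56 (log2, adjusted p = 0.033, edgeR; 15.3% of all genes passed), and this call was lost under DESeq2 with an adjusted p of 0.18 and with cells under 5% mitochondrial UMIs with an adjusted p of 0.056. Endothelial cells exceeded RGCs by 4.59 ± 0.56 (adjusted p = 5.4e-09, edgeR; 35.5% of all genes passed). The size of that difference also rests on few RGC counts, and the log2 ratio was 3.82 in replicate 2, where RGCs had UMIs. A single endothelial cell gave 14 of the 23 UMIs in replicate 1, and 1 gave 27 of the 70 in replicate 2. Cells with a UMI of the arterial genes Gja4, Gja5 or Bmx, a group chosen after the values were seen, had 193 and 368 CPM (9 and 17 cells). The remaining endothelial cells had 14.6 and 13.2 CPM (27 and 70 cells). Most endothelial Cxcl12 was therefore in few cells, and no test was made of that split.

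Cajal-Retzius cells, gated on Trp73, Lhx1, Lhx5 and Ebf3, gave unlike values in the 2 libraries. Cxcl12 was at 65.7 CPM in replicate 1 (12 UMIs, 4 of 27 cells) and at 315 CPM in replicate 2 (112 UMIs, 19 of 37 cells). The median depth of these cells was 4637 and 9491 UMIs. After thinning, 0 of 27 cells (interval 0 to 12.8%) and 9 of 37 cells (24.3%, interval 11.8 to 41.2) had a Cxcl12 UMI, and these intervals overlap. Depth moved with the difference, and its part was not tested.

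The meningeal marker genes were low in both libraries, at 27.4 and 22.5 CPM summed, with Col1a2, Col3a1, Dcn, Lum, Foxc1, Aldh1a2 and Dpt at 0. Cxcl12 stood at 240 and 1400 UMIs per 100 marker UMIs. Reln, the gene of Reelin, split the gate in a further look made after the values were seen. Cells with at least 20 Reln UMIs numbered 11 and 28 and had 111 and 386 CPM of Cxcl12. The other 16 cells of replicate 1 had no Cxcl12 UMI, and the other 9 of replicate 2 had 3 UMIs. Cells with many Reln UMIs were also deeper, with medians of 8711 and 10128.5 UMIs against 4462 and 8628, and the part of depth in this split was not tested.

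Ordered by mean level, Cxcl12 ran from meningeal fibroblasts over Cajal-Retzius cells, endothelial cells, Zbtb20-positive neurons, newborn neurons, IPCs and mural cells to a group of 12 gates below 8 CPM. Of the 18 pairs of neighbours in that order 2 passed the test, meningeal fibroblasts against Cajal-Retzius cells at 2.89 ± 0.25 (adjusted p = 4.6e-13, edgeR) and Cajal-Retzius against endothelial cells at 1.32 ± 0.36 (adjusted p = 0.0035, edgeR). Within replicate 1 and replicate 2 alone, the log2 ratios were 4.37 and 1.98 for the former pair and 0.34 and 1.80 for the latter. Over these pairs 26.1% of all genes passed on average. Zbtb20-positive neurons had 73.8 and 28.4 CPM from 13 and 7 UMIs and could not be placed against either neighbour. Layer 5 and upper-layer neurons did not differ beyond their spread either, at -0.76 ± 0.86 (adjusted p = 0.88, edgeR; 3.14% of all genes passed). The libraries pointed opposite ways for this pair, with log2 ratios of 0.62 in replicate 1 and -1.77 in replicate 2. Glial-fated progenitors, gated on Olig1, Olig2 and Pdgfra, had no Cxcl12 UMI in 39 and 65 cells, which allows up to 9.91 and 6.30 CPM.

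Cxcr4, the signalling receptor, had 178 and 360 UMIs in the kept cells. MGE interneurons, gated on genes that include Lhx6, Sox6, Maf and Nxph1, had 24.8 and 32.7 CPM (44 and 83 UMIs in 447 and 610 cells). A Cxcr4 UMI was found in 8.28% and 11.6% of these cells, and in 4.47% and 3.93% after thinning. Upper-layer neurons, sequenced more deeply with a median of 6912 and 5711 UMIs, showed one in 0.291% and 0.317%. The MGE share was thus well above that background in both libraries.

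The interneurons of the other eminences had less. CGE interneurons, gated on Adarb2, Prox1, Nr2f2 and Htr3a, had 13.0 and 12.9 CPM. Interneurons gated on genes of the lateral ganglionic eminence (LGE-type) had 1 and 2 UMIs. Striatal neurons had 7.95 and 6.90 CPM, and GABAergic progenitors, cycling cells with GABAergic genes, had 4.44 and 4.47 CPM. MGE interneurons were higher than each of these gates in both libraries.

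The difference between MGE and CGE interneurons was 1.15 ± 0.38 on the log2 scale and did not pass the test (adjusted p = 0.059, edgeR; 6.49% of all genes passed), although it passed under 4 of the other settings tried. MGE interneurons exceeded striatal neurons by 1.96 ± 0.41 (adjusted p = 3.7e-04, edgeR; 11.2% of all genes passed) and GABAergic progenitors by 2.76 ± 0.39 (adjusted p = 1.2e-07, edgeR; 37.3% of all genes passed). The striatal call was lost with cells under 5% mitochondrial UMIs (adjusted p = 0.053, edgeR). Against the 18 other gates, MGE interneurons had more Cxcr4 than 14 and did not pass the test against 4, which were endothelial cells, erythroid cells, Cajal-Retzius cells and CGE interneurons. In contrasts of MGE interneurons 27.3% of all genes passed on average. The erythroid sums are mostly UMIs of globin genes, by which that gate was defined, so their CPM values say little of other genes.

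**Figure D3:**
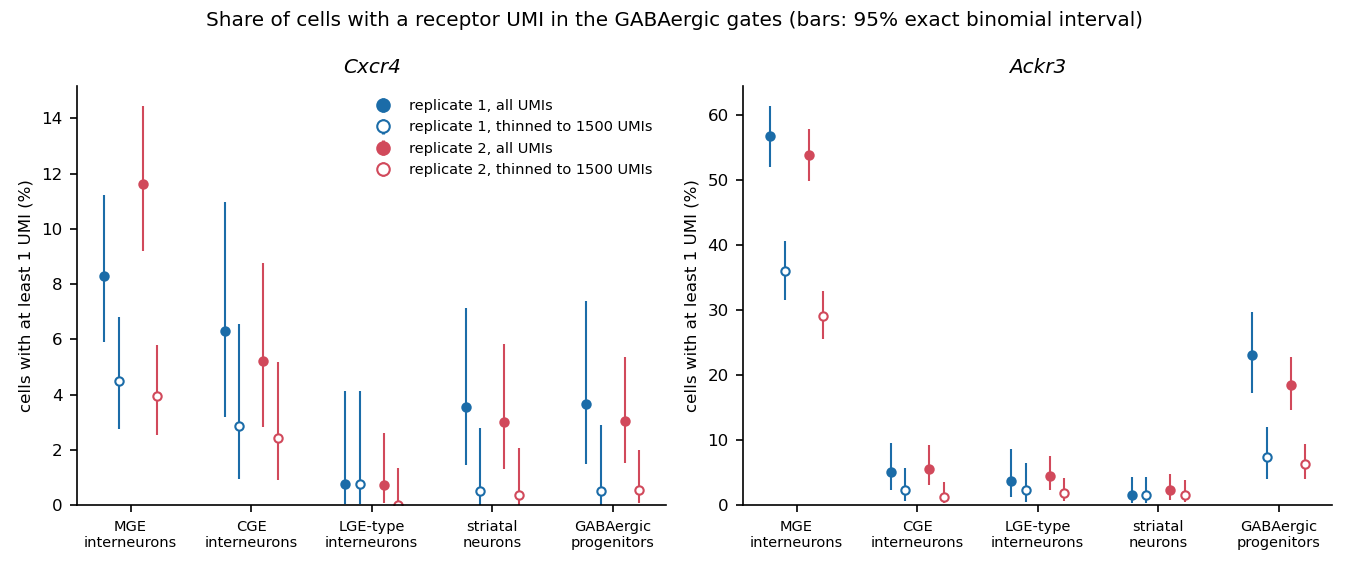
Share of cells with at least 1 UMI of Cxcr4 (left) and Ackr3 (right) in 5 GABAergic gates, as deposited (filled) and after thinning every cell to 1500 UMIs (open), with 95% exact binomial intervals that cover counting error only. Ackr3 was found in 56.8% and 53.9% of MGE interneurons, far above the other GABAergic gates, while the Cxcr4 intervals of MGE and CGE interneurons overlap after thinning.

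Cajal-Retzius cells had the highest mean level of Cxcr4, but it rested on 1 library. Replicate 1 had 2 UMIs (10.9 CPM) and replicate 2 had 23 UMIs (64.7 CPM, 18 of 37 cells). The fitted difference from upper-layer neurons was 6.10 ± 0.62 (log2, adjusted p = 9.6e-11, edgeR; 15.3% of all genes passed). Within replicate 1 alone the log2 ratio was 4.78, and within replicate 2 it was 6.86. Both libraries had the same direction, while the level itself differed. Against MGE interneurons, the next gate in the order, the difference was 0.39 ± 0.41 (adjusted p = 0.58, edgeR).

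Cajal-Retzius cells with at least 20 Reln UMIs held 2 of the 2 and 22 of the 23 Cxcr4 UMIs. In replicate 2, 14 of the 18 Cxcr4-positive cells also had a Cxcl12 UMI, so ligand and receptor transcripts were found in the same cells. In replicate 1 this held for 1 of 2 cells. A droplet that holds a second cell would give the same picture. Scrublet marked 2 and 5 cells of this gate.

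Endothelial cells followed MGE interneurons in the order of Cxcr4, with 13.8 and 30.9 CPM (6 and 24 UMIs). RGCs had 5.95 and 11.8 CPM (10 and 23 UMIs) and IPCs had 4.54 and 4.25 CPM (12 and 14 UMIs). IPCs against RGCs gave -0.96 ± 0.45 (adjusted p = 0.10, edgeR), which did not pass. Cycling IPCs held 14 Cxcr4 UMIs and non-cycling IPCs 9, under the count filter of the test. Without that filter the difference was 0.94 ± 0.76 (adjusted p = 0.69, edgeR) and did not pass. Microglia had 2 UMIs, both in a single cell of replicate 1. Meningeal fibroblasts, the main source of the ligand transcript, had 1 Cxcr4 UMI in 126 cells. None of the 18 pairs of neighbours in the order of Cxcr4 passed the edgeR test (27.9% of all genes passed on average), which does not show that neighbours had equal levels.

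Ackr3, the arrestin-coupled receptor, had 1088 and 1455 UMIs in the kept cells and was concentrated in 1 gate. MGE interneurons had 304 CPM in replicate 1 (540 UMIs) and 252 CPM in replicate 2 (641 UMIs), a mean of 278 ± 36.7 (SD, n = 2). They held on average 46.8% of a library's Ackr3 UMIs. An Ackr3 UMI was found in 56.8% and 53.9% of MGE interneurons, and in 36.0% and 29.2% after thinning. In upper-layer neurons it was found in 1.31% and 0.713%, at greater depth.

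CGE interneurons had 15.4 and 12.9 CPM of Ackr3, LGE-type interneurons 9.56 and 14.2 CPM and striatal neurons 2.98 and 5.37 CPM. No value of these gates came near the MGE level in either library. MGE interneurons exceeded CGE interneurons by 4.28 ± 0.24 (log2, adjusted p = 1.0e-18, edgeR), a contrast in which, as above, few genes of the whole table passed. They were higher than 18 of 18 other gates, by 2.88 to 7.32 on the log2 scale, where on average 27.3% of all genes passed. The upper end is against Cajal-Retzius cells, which had 1 Ackr3 UMI in all, so it is no measured fold.

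GABAergic progenitors were the next gate, with 36.2 and 40.7 CPM (57 and 100 UMIs), and 23.0% and 18.5% of cells with a UMI. MGE interneurons exceeded them by 2.88 ± 0.16 (log2, adjusted p = 3.1e-19, edgeR). This was the only 1 of the 18 neighbouring pairs of Ackr3 that passed, where 26.6% of all genes passed on average. Progenitors with an Lhx6 UMI, a group chosen after the values were seen, had 66.8 and 82.8 CPM (20 and 29 cells). The others had 31.5 and 36.6 CPM (171 and 334 cells). Progenitors with Lhx6 were also deeper, with medians of 9678 and 7563 UMIs against 6304 and 5234. Scrublet marked 23 and 56 cells of the whole gate. The part of depth and of doublets in this split was not tested. Both sets of progenitors were below MGE interneurons and above CGE interneurons in each library. Against the 18 other gates GABAergic progenitors had more Ackr3 than 14, less than 1 (MGE interneurons) and did not pass against 3, namely erythroid cells, Zbtb20-positive neurons and glial-fated progenitors. On average 32.5% of all genes passed in those contrasts.

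Glial-fated progenitors had 33.0 and 18.9 CPM of Ackr3 from 10 and 9 UMIs. Zbtb20-positive neurons had 17.0 and 32.5 CPM from 3 and 8 UMIs. RGCs had 13.7 and 10.8 CPM (23 and 21 UMIs), and IPCs had 2.27 and 2.73 CPM (6 and 9 UMIs). The RGC values were above those of IPCs in both libraries, and IPCs differed from RGCs by -2.16 ± 0.46 (log2, adjusted p = 1.9e-04, edgeR). The receptor was therefore higher in the progenitor gate in which Cxcl12 was lower.

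In the vessels and meninges Ackr3 was scarce. Endothelial cells had 4.60 and 5.15 CPM and mural cells 5.99 and 7.27 CPM, from 11 UMIs in all, with a difference of -0.30 ± 0.99 (adjusted p = 0.94, edgeR) that this depth could not resolve. Meningeal fibroblasts had 12.8 and 7.41 CPM and did not differ from RGCs beyond the spread, at -0.21 ± 0.52 (adjusted p = 0.81, edgeR). Cajal-Retzius cells had 1 Ackr3 UMI in 64 cells. That gate and upper-layer neurons, with 22 UMIs in 1949 cells, could not be told apart. The gate with abundant Cxcr4 relative to other cells in replicate 2 had no Ackr3 UMI there, which allows up to 8.43 CPM.

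**Figure D4:**
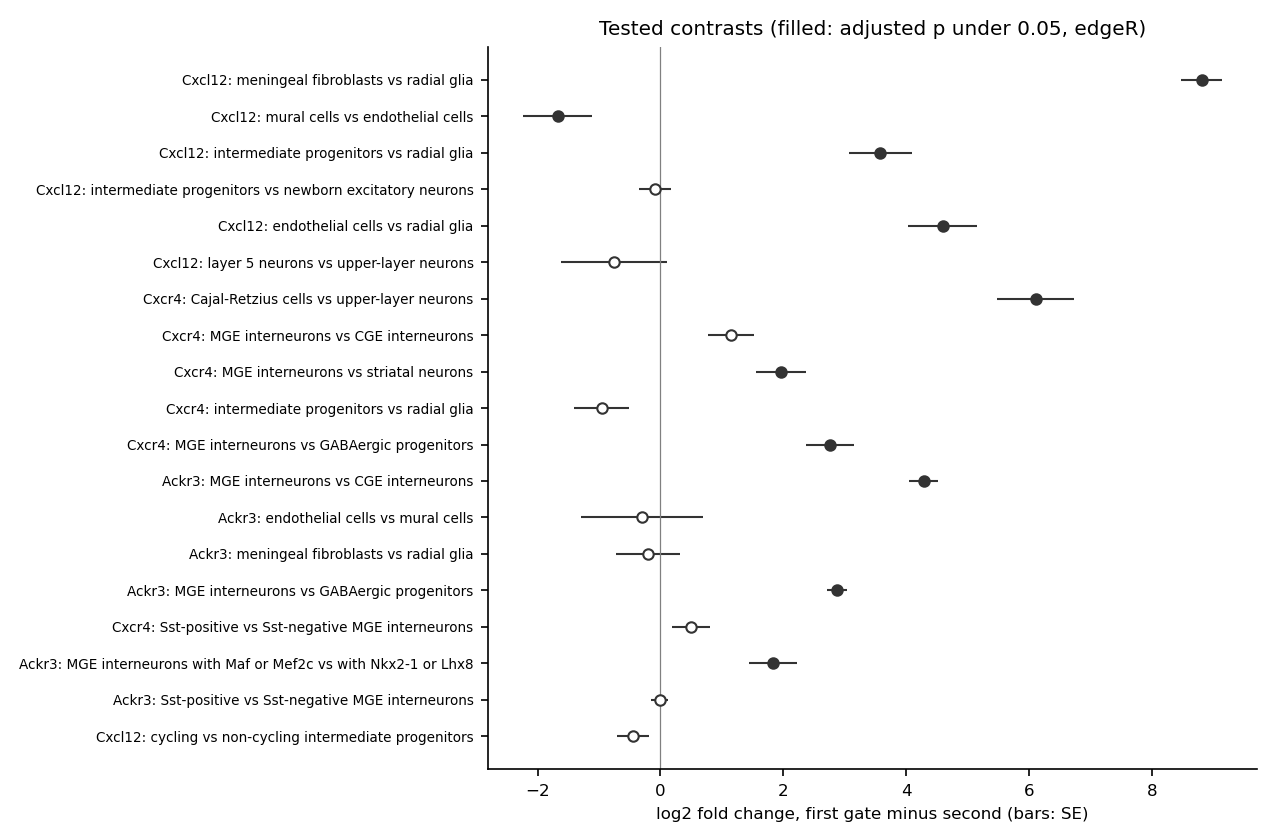
Fitted log2 difference of a member between 2 gates, the first named minus the second (bars, SE; filled, adjusted p under 0.05 by edgeR; 2 libraries in each gate). The meningeal excess of Cxcl12 over RGCs at 8.81 is the largest shown, and Ackr3 differs from 0 between MGE interneurons and both CGE interneurons and GABAergic progenitors. Ackr3 in Cajal-Retzius cells and Cxcr4 in MGE cells with Nkx2-1 or Lhx8, each with 1 UMI in all, are not drawn.

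Within the MGE gate the receptors were compared along lines that did not use them. Cells with UMIs of Maf or Mef2c, genes of interneurons bound for the cortex, were set against cells with UMIs of Nkx2-1 or Lhx8, genes kept on in MGE cells of the ventral forebrain. Ackr3 was at 345 and 267 CPM in the first set (370 and 542 cells) and at 105 and 74.4 CPM in the second (19 and 13 cells, 11 and 5 UMIs). The sets did not overlap between libraries, and the difference was 1.83 ± 0.40 (log2, adjusted p = 3.3e-04, edgeR; 3.07% of all genes passed). It did not pass under DESeq2 (adjusted p = 0.093), with stricter gates (adjusted p = 0.86, edgeR) or with cells under 5% mitochondrial UMIs (adjusted p = 0.075, edgeR). Cxcr4 was at 31.3 and 36.0 CPM in the first set, and the second held 1 and 0 UMIs, so no fold is given (adjusted p = 0.36, edgeR).

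Sst, the gene of somatostatin, marks the interneurons that the study was about. Ackr3 was at 304 and 250 CPM in MGE interneurons with an Sst UMI (110 and 116 cells) and at 304 and 253 CPM in those without (337 and 494 cells). The values matched within each library, with a difference of -0.01 ± 0.14 (log2, adjusted p = 0.99, edgeR; 1.09% of all genes passed). Cxcr4 was at 34.5 and 39.8 CPM with Sst and at 21.3 and 30.7 CPM without. It was higher with Sst in both libraries, but the difference of 0.50 ± 0.31 did not pass (adjusted p = 0.64, edgeR). Cells without an Sst UMI can include cells whose Sst transcripts were missed, since their median depth was 3196 and 3586.5 UMIs against 3864.5 and 4384.5.

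Both receptors were found in the same MGE cells at times. After thinning, 10 of 447 cells (2.24%, 95% exact binomial interval 1.08 to 4.08) and 11 of 610 cells (1.80%, interval 0.904 to 3.2) had UMIs of both. As deposited, 23 and 46 cells did. At equal depth Ackr3 was found in 10 of 20 Cxcr4-positive cells of replicate 1 (interval 27.2 to 72.8%) against 35.4% of the Cxcr4-negative ones, and in 11 of 24 of replicate 2 (45.8%, interval 25.6 to 67.2) against 28.5%. As deposited, it was found in 62.2% of Cxcr4-positive and 56.3% of Cxcr4-negative cells of replicate 1, and in 64.8% and 52.5% of those of replicate 2. Cxcr4-positive cells thus had the higher share in both libraries and at both depths, and the difference was not tested, since cells are not replicates.

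**Figure D5:**
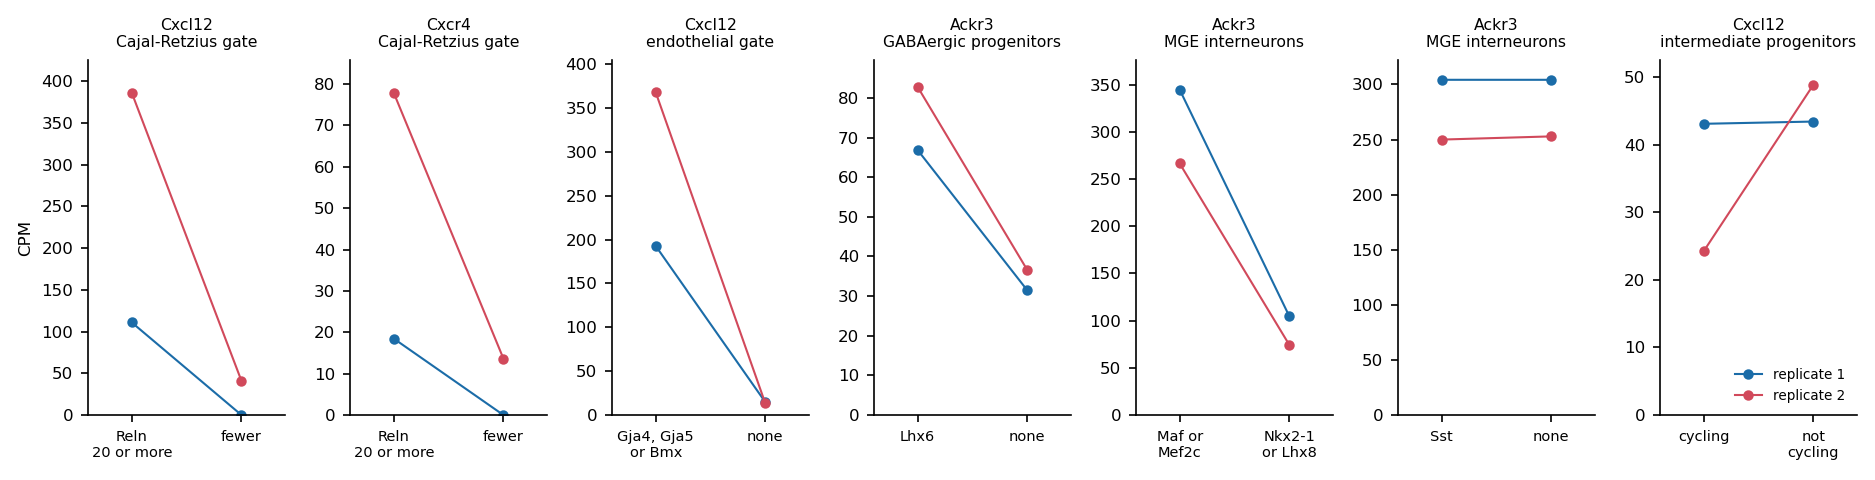
Levels in CPM (each axis starts at 0) of a member in sets of cells inside a gate, with 1 line per library. Cxcl12 and Cxcr4 fall from Cajal-Retzius cells with at least 20 Reln UMIs to the others, Cxcl12 from endothelial cells with arterial genes (193 and 368 CPM) to the rest (14.6 and 13.2 CPM), and Ackr3 is level between MGE interneurons with and without Sst.

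Cells outside every gate held on average 27.3% of the Cxcl12, 36.3% of the Cxcr4 and 37.4% of the Ackr3 UMIs. Of the ungated Ackr3 UMIs, 36.4% and 29.8% were in cells with an Lhx6 UMI. Of the ungated Cxcl12 UMIs, 56.8% and 36.2% were in cells with an Eomes or Neurod1 UMI, and 18.8% and 34.7% in cells with at least 2 meningeal gate markers.

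Downstream of the receptors stand the G proteins, the kinases and arrestins that switch them off, and adaptors of the cytoskeleton. From a list of 30 such genes, 29 could be tested between gates. In MGE against CGE interneurons 4 rose and 3 fell, beside the 6.49% of all genes that passed, with a median log2 difference of -0.01 over the list and 0.01 over all genes. Elmo1, an adaptor of Rac activation, was higher by 1.27 ± 0.14 (adjusted p = 2.2e-09, edgeR), at a mean of 413 against 169 CPM. Arrb1, the gene of beta-arrestin 1, was higher by 1.03 ± 0.26 (adjusted p = 0.0068, edgeR), and Gnai2, an inhibitory G protein subunit, was lower by -0.93 ± 0.15 (adjusted p = 1.2e-05, edgeR). Grk3, a kinase that acts on activated receptors, was higher by 1.14 ± 0.36 (adjusted p = 0.042, edgeR). Gnao1, a G protein subunit abundant in neurons, was lower by -0.47 ± 0.14 (adjusted p = 0.021, edgeR).

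Against GABAergic progenitors, 9 of the 29 were higher in MGE interneurons and 4 lower (median 0.27, all genes 0.03), in a contrast where 37.3% of all genes passed. Elmo1 was higher by 2.55 ± 0.14 and Arrb1 by 1.94 ± 0.24, whereas Gnai2 was lower by -1.09 ± 0.14. Gng2, a G protein gamma subunit, was higher by 1.33 ± 0.11, Grk3 was higher by 1.24 ± 0.30 and Grk6, a further receptor kinase, was lower by -0.78 ± 0.21. Against striatal neurons, where 11.2% of all genes passed, 5 were higher and 4 lower. Grk3 (2.15 ± 0.40), Elmo1 (1.55 ± 0.14) and Gnai1 (0.999 ± 0.194) were higher in MGE interneurons, and Gnaz (-1.02 ± 0.32), Gnai2 (-0.75 ± 0.15) and Grk5 (-0.71 ± 0.21) were lower. Between MGE interneurons with and without Sst, 24 could be tested and Elmo1 alone passed (1.09% of all genes), lower with Sst by -0.73 ± 0.15 (adjusted p = 0.018, edgeR), at 277 against 455 CPM. Between the Maf or Mef2c and the Nkx2-1 or Lhx8 cells, 23 could be tested and Gnai2 alone passed (3.07% of all genes), at -1.13 ± 0.35 (adjusted p = 0.045, edgeR).

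In Cajal-Retzius cells against upper-layer neurons, 3 of the 29 were higher and 2 lower, a share near the 15.3% of all genes that passed. Rgs4, which shortens G protein signals, had 121 CPM against 0.650 CPM in upper-layer neurons, a log2 difference of 7.30 ± 0.45 (adjusted p = 1.2e-16, edgeR). Stat3 was higher by 3.24 ± 0.63, and Ptk2, the focal adhesion kinase gene, was lower by -1.37 ± 0.19. Gnaz was higher by 1.10 ± 0.38 and Gng2 lower by -0.72 ± 0.14. In IPCs against RGCs 6 were higher and 4 lower, again near the share of all genes (31.8%), among them Gnai2 at -1.41 ± 0.12 and Gnao1 at -1.29 ± 0.13. Grk3 (1.34 ± 0.28), Grk5 (0.58 ± 0.22) and Gng2 (0.39 ± 0.13) were higher in IPCs, and Jak2, a kinase of cytokine receptors, was lower (-0.63 ± 0.18). In IPCs against newborn neurons 3 were higher and 7 lower (28.1% of all genes passed). Elmo1 (-2.02 ± 0.20), Gng2 (-1.48 ± 0.11), Arrb1 (-1.16 ± 0.24) and Ptk2 (-0.67 ± 0.11) were lower in IPCs, and Grk3 (0.88 ± 0.24) and Gnai2 (0.63 ± 0.13) were higher. Between cycling and non-cycling IPCs 2 of the 21 tested were higher and 0 lower (17.4% of all genes), the receptor kinase genes Grk6 (1.34 ± 0.34) and Grk2 (1.09 ± 0.38). In layer 5 against upper-layer neurons 2 of the 29 were higher and 0 lower (3.14% of all genes), of which Elmo1 (1.01 ± 0.21) reached 20 CPM.

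In the cells of vessels and meninges, Dpp4 is the gene of a surface protease that cuts and inactivates CXCL12. It had 47.0 and 20.1 CPM in meningeal fibroblasts and 13.8 and 43.8 CPM in endothelial cells, so the libraries disagreed on which was higher. RGCs had 1 Dpp4 UMI in all, so no fold is given against them. Of the 29 genes, 7 were higher and 4 lower in meningeal fibroblasts than in RGCs, near the 33.8% of all genes that passed. Besides Dpp4, Pxn, the gene of the adhesion adaptor paxillin, was higher by 2.03 ± 0.35, Mapk3, the gene of the kinase ERK1, by 1.56 ± 0.22, Grk5 by 1.28 ± 0.27 and Gng2 by 0.93 ± 0.15, whereas Gnao1 was lower by -2.60 ± 0.20. In endothelial cells 12 were higher and 3 lower than in RGCs (median 0.44, all genes -0.21), where 35.5% of all genes passed. Elmo1 was higher by 4.72 ± 0.21, Grk5 by 2.69 ± 0.22, Mapk3 by 2.05 ± 0.21 and Pxn by 1.96 ± 0.36, and Gnao1 was lower by -3.38 ± 0.23. In mural against endothelial cells 7 were higher and 8 lower, where 15.3% of all genes passed. Rgs4 was at 273 and 223 CPM in mural cells with no UMI in endothelial cells, Grk3 was at a mean of 20.2 CPM against no UMI, and Dpp4 had no UMI in mural cells, so no fold is given for these 3. Elmo1 was lower in mural cells by -6.66 ± 0.40 and Pxn by -2.25 ± 0.53, and Rgs10, a further regulator of G protein signals, was higher by 2.17 ± 0.51. Among other ligands that share a receptor with the members, Adm (adrenomedullin) was at 75.1 CPM in endothelial cells and Penk (proenkephalin), whose peptides ACKR3 also binds, at 33.5 CPM in meningeal fibroblasts. Mif, a further ligand of CXCR4, was found in all gates and was highest in RGCs, at 1043 CPM.

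Of 23 further chemokines and chemokine receptors in the list, 15 could be tested between gates. In endothelial cells against RGCs 3 were higher and 0 lower, where 35.5% of all genes passed. In mural against endothelial cells 2 were higher and 2 lower, where 15.3% of all genes passed. Other contrasts had fewer, with 2 higher and 0 lower in meningeal fibroblasts against RGCs (33.8% of all genes passed). MGE against CGE interneurons had 0 higher and 1 lower (6.49% of all genes). Cajal-Retzius cells against upper-layer neurons had 0 higher and 0 lower (15.3% of all genes). Cxcl16 was highest in meningeal fibroblasts at 32.0 and 41.3 CPM. Ackr2, the gene of a scavenging receptor for CC chemokines, was highest in endothelial cells at 39.1 and 50.3 CPM. Pf4, Cx3cr1, Ccl2 and Ccl3 were highest in microglia and macrophages.

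The genes whose level over the 19 gates was most like that of each member were found by Pearson's r of log2(CPM + 1), averaged over both libraries, among 11665 genes. For Cxcl12 these were Gxylt2 (r = 0.83), Igfbp6 (0.78), Abhd16a (0.77), Tgfbr3 (0.77) and Smoc2 (0.77), all 5 highest in meningeal fibroblasts. For Cxcr4 they were Fbxo34 (0.77), Rcan3 (0.76), Iqsec1 (0.76), Dach1 (0.70) and Pcyox1l (0.66). For Ackr3 they included Nxph2 (0.81), Thbs1 (0.79) and Sh3rf1 (0.77), all 3 highest in MGE interneurons, and Npas3 (0.75), highest in CGE interneurons. Ranked by Spearman's rho instead, 1, 3 and 1 of the 5 genes of each member stayed among the 5 most alike. The gates share their libraries, so these values describe the pattern only.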

How the data were processed

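Droplet single-cell libraries (10x Genomics 3' v3.1) of E16.5 cerebral cortex were analysed, 2 in all. The deposited values are raw UMI counts per gene and cell barcode, made by the authors with Cell Ranger (7.0.0 per the labels, 7.1.0 per the file headers) on mm10. Replicate 1 held 9049 barcodes and 46398156 UMIs, replicate 2 13556 barcodes and 64324236 UMIs. Low depth widens the error of the sparse receptor counts, and droplets can hold free RNA.

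Cells were kept at 1500 to 60000 UMIs and under 10% mitochondrial UMIs, gated on markers, and summed per library and gate. Cells in more than 1 gate were left out. Sums were tested with edgeR 4.0.16 in R 4.3.3 (quasi-likelihood, TMM, a gene needing 10 counts in 2 sums, library as block, Benjamini-Hochberg over all 14570 genes, threshold 0.05), and splits inside a gate in fits of their own. Scripts were tested on simulated data. DESeq2 1.42.0, other filters and gates, and Scrublet in scanpy 1.11.5 (0.8% per 1000 barcodes) served as alternatives. Scored doublets stayed in for the values given, 432 and 1111 cells. The members, gene lists and contrasts were chosen with earlier results of these data known. Pathway genes are named if they passed and reached 20 CPM in the higher gate, at most 6 per contrast, and the 5 genes most like each member were taken without gate markers; 1 of those 5 for Ackr3 is not reported here. Sets of cells by Reln, arterial genes, Lhx6 and ungated markers were chosen after the values were seen. Gene positions come from RefSeq GRCm38.p6, which is the build of mm10. Intervals are exact binomial at 95%, and a count of 0 was given a limit of 3 counts.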

Additional observations from a re-analysis of the deposited data

How the results depend on the processing

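Of 21 tested differences 10 passed, and over 182 alternatives 162 kept direction and side of the threshold, 6 lost the call, 5 gained it and 9 changed sign, all of them differences that passed neither way. Ackr3 in Cajal-Retzius against upper-layer cells became 0.066 with RLE size factors, 0.080 under DESeq2, 0.25 without doublets and 0.91 under 5% mitochondrial UMIs. Ackr3 in meningeal fibroblasts against RGCs became 0.23 with stricter gates and 0.92 under 5% mitochondrial UMIs, Ackr3 by Sst 0.072 with stricter gates and 0.089 with at least 3000 UMIs, and Cxcl12 in layer 5 against upper-layer neurons 0.061 under 5% mitochondrial UMIs. Leaving out the replicate block (the library term) changed 0 calls: Cxcr4 in MGE against CGE interneurons was 1.15 (adjusted p = 0.12, edgeR) without it. That difference gained the call with RLE size factors (1.18), without a count filter (1.17), with only the compared gates (1.14) and without doublets (1.21), with adjusted p from 0.0031 to 0.048. The call of Cxcl12 in mural against endothelial cells was lost under DESeq2 (-1.55) and under 5% mitochondrial UMIs (-4.01). The latter also ended Cxcr4 in MGE against striatal neurons (1.99). Ackr3 in Maf or Mef2c against Nkx2-1 or Lhx8 cells lost its call under DESeq2 (1.82), under stricter gates (2.59) and at 5% mitochondrial UMIs (2.18). Stricter gates gave IPCs less Cxcl12 than newborn neurons (-1.17, adjusted p = 0.0032). The causes were not tested.

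With 1 library the value is a log2 ratio with no test, and none reversed a called difference. Cxcl12 ranged from 7.60 to 12.22 for meningeal fibroblasts against RGCs, 2.48 to 7.14 for IPCs against RGCs, 3.82 to 7.51 for endothelial cells against RGCs and -1.70 to -1.08 for mural against endothelial cells. In the 3 ranges against RGCs the upper end rests on replicate 1, where RGCs had no UMI, and is set by a pseudocount of 0.5 UMI. Cxcr4 ranged from 2.40 to 2.81 for MGE interneurons against GABAergic progenitors and 1.15 to 2.28 for the Maf or Mef2c split, whose Nkx2-1 or Lhx8 set had 1 and 0 UMIs, so that these are no measured folds. Ackr3 ranged from 4.24 to 4.25 for MGE against CGE interneurons, -0.55 to -0.38 for endothelial against mural cells, 0.082 to 1.72 for Cajal-Retzius against upper-layer cells, 1.66 to 1.70 for the Maf or Mef2c split and -0.013 to 0.0033 for Sst. Cajal-Retzius cells had 1 and 0 Ackr3 UMIs, so the 0.082 is set by the pseudocount. Thinning lowered mean shares with a UMI to 78.5%, 6.39% and 5.54% for Cxcl12 in meningeal cells, IPCs and newborn neurons, 4.20% for Cxcr4 and 32.6% for Ackr3 in MGE interneurons, and 6.83% for Ackr3 in GABAergic progenitors, and co-detection as deposited was 6.34%. Cxcr4 in cycling IPCs was left out by the count filter and gave 0.94 (adjusted p = 0.69, edgeR) without it. Cxcr4 in Cajal-Retzius and Ackr3 in endothelial against mural cells had no value with only the compared gates. Order steps, contrasts against each other gate and pathway genes were not rerun.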

Other observations

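Microglia and macrophages had 2 Cxcl12, 2 Cxcr4 and 1 Ackr3 UMIs in all, too few to place their levels of the members. These cells held the inflammatory chemokines of the gene list, and the levels of those genes differed between the libraries. Ccl2 was at 994 CPM in replicate 1 (27 cells) and 162 CPM in replicate 2 (73 cells), Ccl3 at 636 and 140 CPM, and Cxcl10 at 1246 and 6.76 CPM. Pf4, a gene of border macrophages, went the other way, at 2652 and 7763 CPM. Cx3cr1, which marks microglia, was at 822 and 762 CPM, P2ry12, a further microglial gene, at 683 and 379 CPM, and Mrc1, a macrophage gene, at 1492 and 3448 CPM. The part of the mix of cells in the gate was not tested. With 1 library on each side, these differences were not tested.

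Mural cells held Ccrl2, the gene of an atypical chemokine receptor, at 56.9 and 41.2 CPM, above the 6.02 CPM mean of endothelial cells by 2.86 ± 0.81 (log2, adjusted p = 0.013, edgeR; named after its value was seen).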
